A study of Mus musculus with 6 samples.

Results

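The genes described here are the 10 that encode the subunits of the transcription factor NF-kB and its main inhibitors and co-factors. They were taken by gene name from the deposited expression table, and all 10 were found once each among 34745 genes. The subunit genes are Nfkb1, Nfkb2, Rel, Rela and Relb. The regulators are Nfkbia, Nfkbie, Nfkbiz, Bcl3 and Tnfaip3. RNA was sequenced from mouse CD4 T cells in 6 libraries. The PM2.5 group (3 libraries) was given a suspension of PM2.5, the fine fraction of airborne particulate matter, at 100 µg/ml from 6 h after stimulation, and the PBS group (3 libraries) was given PBS at that time. All cells were naive CD4 T cells from spleens of female C57BL/6 mice aged 6 weeks. They were stimulated with plate-bound antibodies to CD3 and CD28 for 4 days in IL-6 (20 ng/ml), IL-23 (10 ng/ml), TGF-beta (2 ng/ml) and IL-2 (5 ng/ml), together with blocking antibodies to IFN-gamma and IL-4. This mixture drives IL-17 producing (Th17) cells. Whether the replicates came from separate cultures or mice is not stated in the sources used here, so a p-value reflects only how far these libraries spread, and that spread may be technical.

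NF-kB acts as a dimer of proteins that share a DNA-binding region, the Rel homology domain. Rela, Rel and Relb encode p65, c-Rel and RelB, which carry activation domains, whereas Nfkb1 and Nfkb2 encode the precursors p105 and p100, which are cut to the DNA-binding proteins p50 and p52. In resting cells inhibitors of the IkB family hold the dimers in the cytoplasm. Signals from the T cell receptor and CD28 pass through adaptor proteins, BCL10 and MALT1 among them, to the IkB kinase, which marks the inhibitors for destruction and frees the dimers. In T cells c-Rel is known for driving Il2 and for its part in the differentiation of regulatory T cells and Th17 cells. Several NF-kB and IkB genes are themselves NF-kB targets, which gives the pathway its feedback.

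Library totals were 25397965 to 27215853 counts in the PM2.5 group and 19511561 to 22353131 in the PBS group, so every PM2.5 library was the deeper. Levels are given as CPM, which are counts divided by the size of the library. A count of 0 would allow a level of 0.110 to 0.154 CPM depending on the library, a limit of 3 counts that covers counting error only, and every member lay far above it. Correlations of log2 CPM between libraries of a group were 0.993 to 0.994, against 0.941 between groups, and no library stood apart. Markers of T cells were abundant, with summed levels of 2136 to 2155 CPM in the PM2.5 group and 2790 to 2844 CPM in the PBS group. Of these 6 genes, 5 fell and 1 rose. Markers of the Th17 lineage summed to 2562 to 3035 CPM in the PM2.5 group and 3574 to 3621 CPM in the PBS group, and 5 of 6 fell. The part of these shifts in the values below was not tested.

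Because NF-kB genes can be induced by NF-kB itself, the stretch of 250 bases before the RefSeq gene start (GRCm38.p6) was searched on both strands for the NF-kB consensus decamer (the kB site). RefSeq starts were given for 7 of the members, at 10 starts in all. None was given for Nfkb1, Relb and Nfkbiz, which were not searched. A match was present before at least 1 start of Rel, Nfkb2, Nfkbia, Nfkbie and Tnfaip3, and before 7 of the 10 starts. Of the same stretch before all 32851 RefSeq starts in the table, 7.25% held a match, and among the 12002 starts of genes tested here 8.99% did. The stretches before Rela, Bcl3 and the second start of Tnfaip3 held none. The looser pattern GGGNNNNNCC, read on both strands and met by every consensus match, was found before all 10 starts but also before 45.8% of all starts and 61.4% of the starts of genes tested. The second start of Nfkb2 also had a match, 236 to 227 bases before it, which is not printed. Matches before the genes that changed most, and before Nfkbie, are shown because they differ in letters and place. They are read on the strand of the gene with 9 bases on each side where the stretch reaches that far, the match in capitals:
Rel: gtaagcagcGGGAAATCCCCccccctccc
Nfkb2, first start, distal: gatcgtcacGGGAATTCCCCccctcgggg
Nfkb2, first start, proximal: gggccgaaaGGGGCTTTCCc
Nfkb2, the third start: ggtattttcGGGACTTTCCtaagcagca
Nfkbie: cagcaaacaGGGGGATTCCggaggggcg
Tnfaip3, distal: actcacgcgGGGACACCCCggggcggga
Tnfaip3, proximal: atttccatcGGAAATCCCCct

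The window of Rel lies at chr11:23771042-23771070 on the minus strand, with its match 92 to 82 bases before the start. It holds 2 overlapping decamers, as does the distal window of Nfkb2 at chr19:46304689-46304717 on the plus strand, whose match lies 39 to 29 bases before the start. Nfkbia, the prototype of the feedback loop, and Bcl3, the one member that fell, are shown over all 250 bases, on the minus strand. They lie at chr12:55492648-55492897 and chr7:19822756-19823005, and capitals again mark a consensus match, which Nfkbia holds 29 to 20 bases before its start:
Nfkbia: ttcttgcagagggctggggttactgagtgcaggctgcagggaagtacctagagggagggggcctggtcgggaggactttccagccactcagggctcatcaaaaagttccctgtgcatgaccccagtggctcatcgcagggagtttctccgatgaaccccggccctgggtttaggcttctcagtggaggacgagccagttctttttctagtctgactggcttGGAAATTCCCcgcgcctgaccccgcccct
Bcl3: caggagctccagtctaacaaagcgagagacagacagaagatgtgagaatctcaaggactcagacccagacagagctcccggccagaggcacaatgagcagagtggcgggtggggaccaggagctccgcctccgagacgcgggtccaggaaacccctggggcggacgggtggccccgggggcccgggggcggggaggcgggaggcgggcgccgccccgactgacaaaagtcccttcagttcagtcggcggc
These matches are sequence only. No binding of a factor was measured, and the absence of a match says only that these letters are not in this stretch.

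The study set cells given PM2.5 against cells given PBS. The members did not move as one. All 5 subunit genes rose in the PM2.5 group, by 1.60-fold (Rela) to 2.72-fold (Rel). Of the 5 regulators, 4 rose, by 1.50-fold (Nfkbia) to 3.00-fold (Tnfaip3), and Bcl3 fell 4.94-fold. In edgeR's quasi-likelihood test 9 members were higher and 1 lower at a Benjamini-Hochberg adjusted p under 0.05 over all 12967 genes tested. Among all genes tested 70.6% were called, 35.2% higher and 35.3% lower, so that a call in itself was common in these data. Calls of at least 2-fold were fewer, 6.51% higher and 12.4% lower among all genes, and 4 members were in the first class and 1 in the second. No PM2.5 value of any of the 10 members lay within the PBS range, and 9 of them lay higher and 1 lower. Among all genes tested the groups did not overlap for 74.9%, with 37.4% higher and 37.4% lower. The median log2 fold change was 1.07 over the subunits and 0.60 over the regulators, against -0.01 over all genes tested. In a bulk sample, fewer cells of a type and less RNA per cell cannot be told apart.

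**Figure D1:**
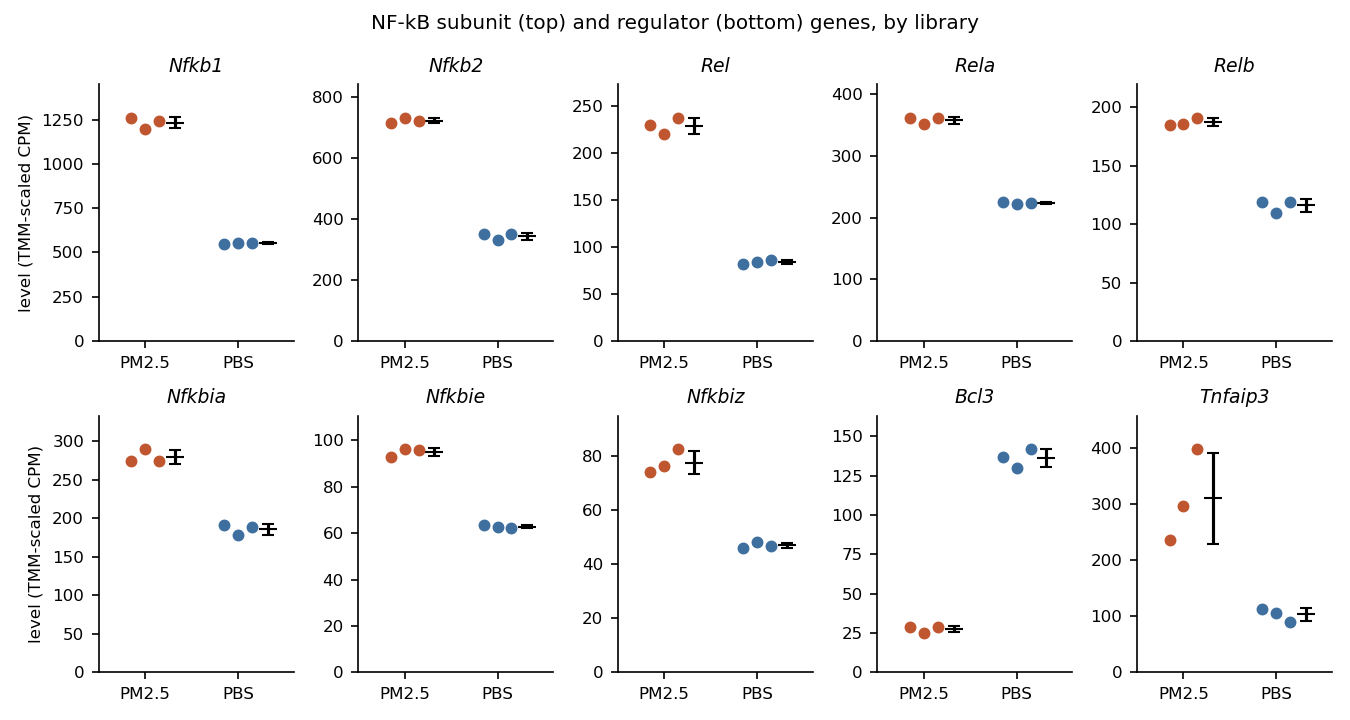
Level of each member in each library (TMM-scaled CPM, axes from 0), with PM2.5 libraries in orange and PBS libraries in blue; black bars are the mean ± SD of 3 libraries. The groups are apart for every gene, Bcl3 is the one that is lower in PM2.5, and the PM2.5 libraries of Tnfaip3 spread from 236 to 398 CPM.

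Rel, the gene of c-Rel (ENSMUSG00000020275, mm10 chromosome 11, 23736847 to 23770970), had 230, 220 and 238 CPM in the PM2.5 libraries, against 82.3, 84.0 and 86.3 CPM in the PBS libraries. Every PM2.5 library was above every PBS library by more than the spread within either group. The rise was 1.44 on the log2 scale (SE 0.04, adjusted p = 3.03e-10), the largest among the subunits. Of the 10189 genes with a group mean of 5 CPM or more in either group, 278 had a larger rise. In either direction 7.23% of them changed by more.

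Nfkb1, the gene of p105 and p50 (ENSMUSG00000028163, chromosome 3, 135584655 to 135691547), had 1260, 1197 and 1245 CPM in the PM2.5 libraries, against 546, 555 and 555 CPM in the PBS libraries. All PM2.5 libraries were above all PBS libraries. The log2 fold change was 1.16 (SE 0.03, adjusted p = 1.58e-10). Nfkb2, the gene of p100 and p52 (ENSMUSG00000025225, chromosome 19, 46304737 to 46312090), stood at 717, 732 and 722 CPM in the PM2.5 libraries and 350, 331 and 350 CPM in the PBS libraries. Its log2 fold change was 1.07 (SE 0.03, adjusted p = 5.31e-10), and the precursor genes rose by similar amounts, 2.24-fold for Nfkb1 and 2.11-fold for Nfkb2. A count per gene does not tell a precursor from its processed product, since the cut is made in the protein. The exons of Nfkb2 overlap those of Psd on the other strand over 299 bases in GENCODE M21, and Psd held 8 counts over the PM2.5 libraries and 7 over the PBS libraries. They also overlap those of the non-coding gene AC114539.1 on the other strand over 531 bases, for which no counts were used here. The strand setting of the counting is not known here.

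Rela and Relb rose less. Rela, the gene of p65, the main activating subunit of the classical pathway (ENSMUSG00000024927, chromosome 19, 5637483 to 5648130), had 361, 351 and 361 CPM in the PM2.5 libraries and 226, 222 and 223 CPM in the PBS libraries (log2 fold change 0.68, SE 0.03, adjusted p = 8.24e-09). Relb, whose product pairs with p52 in the alternative pathway (ENSMUSG00000002983, chromosome 7, 19606217 to 19629438), had 185, 186 and 191 CPM in the PM2.5 libraries and 119, 110 and 119 CPM in the PBS libraries (0.69, SE 0.04, adjusted p = 8.18e-08). These changes were almost equal in size. Of the 10189 genes at 5 CPM or more, 1330 had a larger rise than Rela and 1290 a larger rise than Relb. In either direction 26.7% changed by more than Rela and 26.1% by more than Relb, so neither change stood far out in these libraries.

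Of the classical inhibitors, Nfkbia, the gene of IkB-alpha (ENSMUSG00000021025, chromosome 12, 55489411 to 55492647), had 275, 289 and 275 CPM in the PM2.5 libraries, against 191, 178 and 188 CPM in the PBS libraries. Nfkbie, the gene of IkB-epsilon (ENSMUSG00000023947, chromosome 17, 45555716 to 45563169), had 93.1, 96.1 and 96.0 CPM in the PM2.5 libraries, against 63.6, 62.5 and 62.4 CPM in the PBS libraries. Both rose, by 0.59 (SE 0.04, adjusted p = 2.01e-07) and 0.60 (SE 0.04, adjusted p = 1.42e-07) on the log2 scale. These were the smallest changes among the members.

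Nfkbiz, the gene of IkB-zeta, a nuclear member of the IkB family known for promoting Th17 differentiation (ENSMUSG00000035356, chromosome 16, 55811375 to 55838899), had 74.0, 76.0 and 82.3 CPM in the PM2.5 libraries, against 46.1, 48.1 and 46.5 CPM in the PBS libraries. The groups were apart, and the rise was 0.72 (SE 0.05, adjusted p = 3.84e-07). Bcl3, the gene of another nuclear IkB protein, which binds dimers of p50 or p52 on DNA (ENSMUSG00000053175, chromosome 7, 19808462 to 19822770), went the opposite way. It had 28.7, 25.3 and 28.8 CPM in the PM2.5 libraries, against 137, 130 and 142 CPM in the PBS libraries. The log2 fold change was -2.30 (SE 0.06, adjusted p = 2.18e-10), and 157 of the 10189 genes at 5 CPM or more fell further. In either direction 2.40% of them changed by more. Antisense genes overlap Bcl3, of which Gm16175 shares 161 bases of exon and held 0 counts in either group, and Gm16174 held 8 counts over the PM2.5 libraries and 7 over the PBS libraries.

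Tnfaip3 encodes A20, an enzyme that edits ubiquitin chains and shuts off NF-kB signalling upstream of the IkB kinase (ENSMUSG00000019850, chromosome 10, 19000910 to 19015657). It had 236, 298 and 398 CPM in the PM2.5 libraries, against 114, 106 and 90.5 CPM in the PBS libraries. The lowest PM2.5 library was still above the highest PBS library, but the PM2.5 libraries differed widely from each other. The rise was the largest of the members at 1.58, with the widest error (SE 0.24, adjusted p = 0.00396). Its coefficient of variation in the PM2.5 group was 26.2%, which 1.97% of the 9725 genes at 5 CPM or more in that group exceeded, against a median of 3.70%. In the PBS group it was 11.5%, exceeded by 10.5% of 9968 genes. The coefficients of variation of the other members lay between 1.08% (Nfkb2) and 7.29% (Bcl3) in the PM2.5 group and between 0.905% (Rela) and 4.59% (Relb) in the PBS group.

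**Figure D2:**
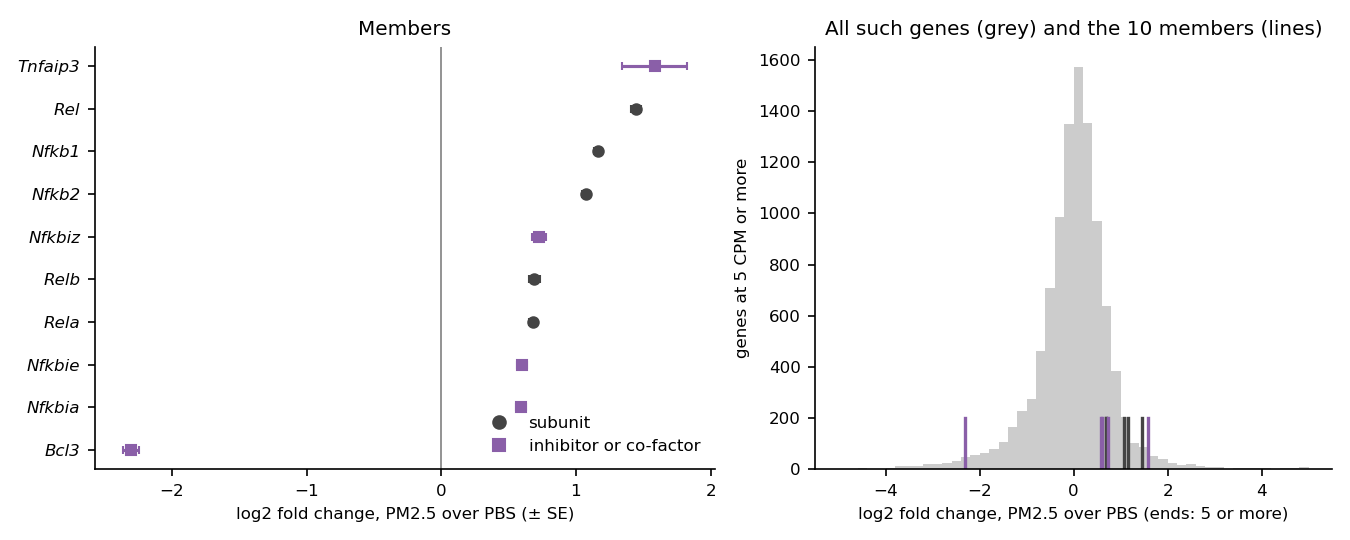
Left, log2 fold change of each member, PM2.5 over PBS, with its SE (circles, subunits; squares, inhibitors and co-factors). Right, the same quantity for the 10189 genes averaging 5 CPM or more in either group (grey histogram) and the members (lines); the subunit genes lie between 0.68 and 1.44, and Bcl3, at -2.30, is the one member below 0.

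Levels were compared between members only per length, and the length used decided part of the order. The authors' FPKM (fragments per kilobase of gene, scaled to library size) rest on 1 length per gene, which was worked out from counts and FPKM. For Rel, Rela, Nfkbia and Nfkbie this length lay within 1% of the longest principal coding transcript in GENCODE M21. For Nfkb1 it was 16227 bases against 4117, for Tnfaip3 13958 against 4422, for Relb 5529 against 2209, for Bcl3 3634 against 1850 and for Nfkbiz 7166 against 4115. For Nfkb2 it was 3384 against 3141. Beside the principal transcripts, the authors' FPKM of these genes are therefore low relative to those of the others, and levels are given both ways. All exons of a gene together give another length, 12061 bases for Nfkb1, 7226 for Tnfaip3, 3885 for Relb and 2475 for Bcl3. For Nfkbiz it is 5018 and for Nfkb2 4584. The authors' length is above it for all of these genes but Nfkb2. No levels were computed with it, so the lead of Nfkb1 below holds for the principal transcripts only.

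By the authors' FPKM, Nfkb2 was the highest member in the PM2.5 group at 209 ± 2.21 FPKM, and second in the PBS group at 104 ± 3.84 FPKM (SD, n = 3). Nfkbia was second in the PM2.5 group at 173 ± 5.20 FPKM and first in the PBS group at 120 ± 4.89 FPKM. Rela followed in both, at 129 ± 2.19 FPKM in the PM2.5 group and 84.1 ± 0.92 FPKM in the PBS group. No neighbours in the order overlapped in the PM2.5 group, and in the PBS group the single overlap was between Tnfaip3 (6.66 to 8.33 FPKM) and Nfkbiz (6.56 to 6.82 FPKM). Bcl3 was the lowest of the members in the PM2.5 group, at 7.42 ± 0.54 FPKM, and the fourth highest in the PBS group, at 38.3 ± 1.86 FPKM.

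Per kilobase of the principal transcript, Nfkb1 led the order in both groups, with 293 ± 7.86 in the PM2.5 group and 137 ± 1.47 in the PBS group, on the FPKM scale (SD, n = 3). Bcl3 was again the lowest in the PM2.5 group, at 14.6 ± 1.07, and the fifth in the PBS group, at 75.2 ± 3.65. Tnfaip3 in the PM2.5 group (52.2 to 87.9) then overlapped its neighbour Relb (81.9 to 84.5). In the PBS group Rel (11.3 to 11.9) overlapped Nfkbiz (11.4 to 11.9), and these were the lowest levels there. Tnfaip3 in the PBS group (21.02 to 26.3) overlapped Nfkbie (26.1 to 26.7).

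**Figure D3:**
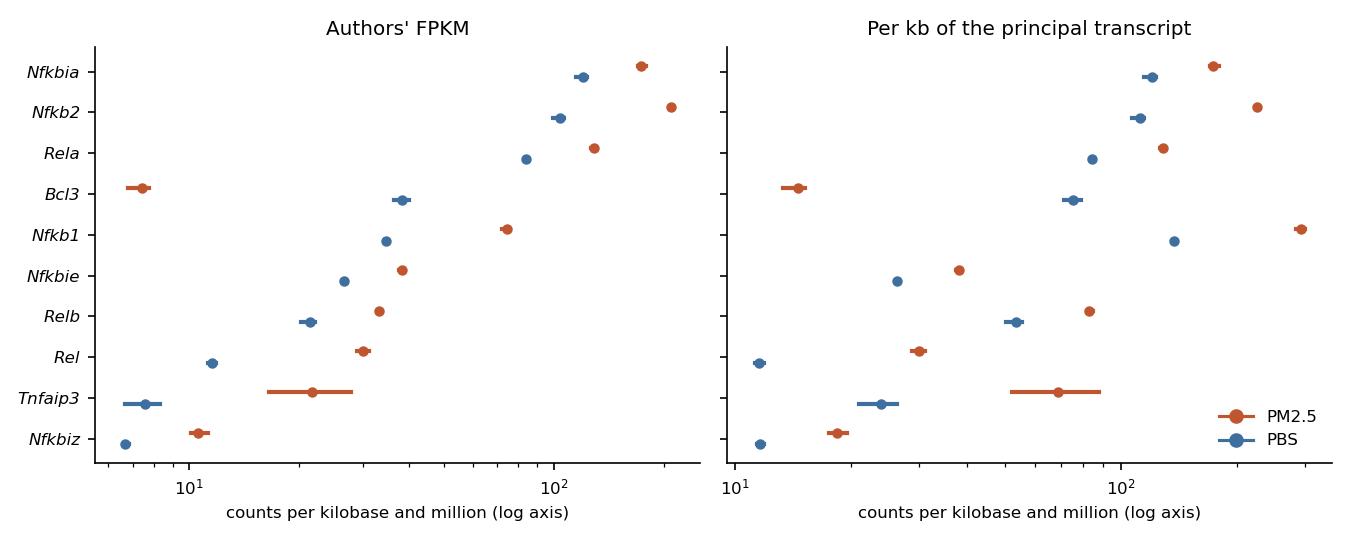
Level per length of each member on a log axis, as the authors' FPKM (left) and per kilobase of the longest principal coding transcript (right); points are means and lines the range of 3 libraries, with PM2.5 in orange above PBS in blue. Bcl3 moves to the bottom of the order in PM2.5 under either length, whereas the place of Nfkb1 depends on the length.

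The make-up of the subunit pool was compared as the share of each gene in the summed FPKM of the 5 subunit genes in its library, which does not depend on how libraries are scaled to each other. Rel made up 6.33%, 6.11% and 6.51% of the pool in the PM2.5 libraries, against 4.36%, 4.60% and 4.57% in the PBS libraries. Rela made up 27.3%, 26.8% and 27.2% in the PM2.5 libraries, against 32.9%, 33.4% and 32.5% in the PBS libraries. Rel thus held more of the pool and Rela less, with no overlap of the groups.

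The share of Relb was also lower, at 6.97 ± 0.09% in the PM2.5 group and 8.38 ± 0.23% in the PBS group. Nfkb1 (15.6 ± 0.33% in the PM2.5 group and 13.6 ± 0.34% in the PBS group) and Nfkb2 (44.0 ± 0.75% in the PM2.5 group and 40.6 ± 0.58% in the PBS group) held more (SD, n = 3). An exact permutation test of each share, two-sided, gave p = 0.1, the smallest that 3 libraries against 3 allow. With the principal transcript lengths the shares of Rel were 3.95 ± 0.11% in the PM2.5 group and 2.90 ± 0.07% in the PBS group, and all 5 differences kept their direction. Nfkb1 then held the largest share, at 38.6 ± 0.61% in the PM2.5 group and 34.4 ± 0.72% in the PBS group. Nfkb2 held 29.6 ± 0.66% in the PM2.5 group and 28.1 ± 0.51% in the PBS group. Without division by length the share of Nfkb2 differed by 0.450 percentage points and the groups overlapped.

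**Figure D4:**
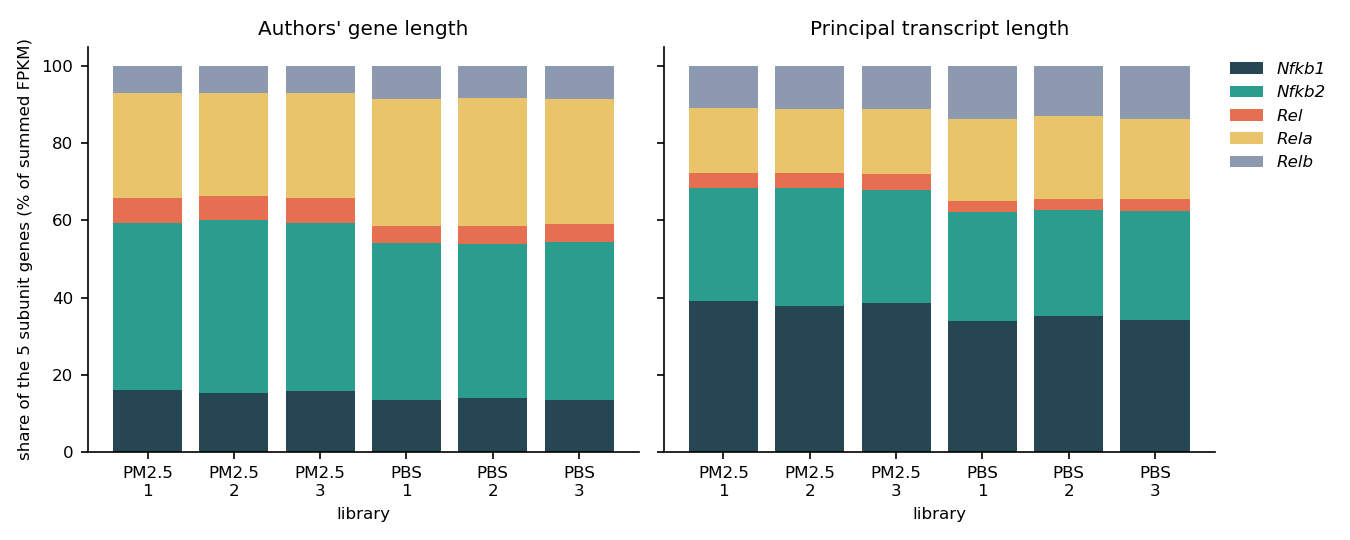
Share of each subunit gene in the summed level per length of the 5 subunit genes, in percent, for each library, with the authors' gene length (left) and the principal transcript length (right). The share of Rel is larger and that of Rela smaller in each PM2.5 library than in any PBS library.

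The ratio of 2 members within a library gives the same comparison free of scaling between libraries, and 6 ratios were compared. They were taken from the authors' FPKM, so their size, unlike the difference between groups, depends on the gene lengths. With the principal transcript lengths Bcl3 (75.2) was lower than Nfkb1 (137) in the PBS group. Nfkb2 was then lower than Nfkb1 in the PM2.5 group (225 against 293) and in the PBS group (112 against 137). Rel to Rela was 0.231, 0.228 and 0.240 in the PM2.5 libraries, against 0.133, 0.138 and 0.141 in the PBS libraries, a difference of 0.77 on the log2 scale. Bcl3 to Nfkb1 was 0.102, 0.0943 and 0.103 in the PM2.5 libraries, against 1.12, 1.04 and 1.14 in the PBS libraries, 11.0-fold lower. Tnfaip3 to Rela was 0.127, 0.165 and 0.214 in the PM2.5 libraries, against 0.0981, 0.0932 and 0.0790 in the PBS libraries. For each of these 3 ratios the groups were apart, with an exact permutation p of 0.1, the smallest possible, and 0.2 after adjustment over the 6 ratios.

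The remaining ratios differed little. Nfkbia to Rela was 1.31, 1.42 and 1.31 in the PM2.5 libraries, against 1.46, 1.38 and 1.46 in the PBS libraries (log2 difference -0.09, exact permutation p = 0.2). Relb to Rela was 0.252, 0.260 and 0.260 in the PM2.5 libraries, against 0.259, 0.243 and 0.262 in the PBS libraries (0.01, exact permutation p = 0.8). Nfkb2 to Nfkb1 was 2.73, 2.93 and 2.78 in the PM2.5 libraries, against 3.07, 2.86 and 3.03 in the PBS libraries (-0.09, exact permutation p = 0.2). In each of these 3 the groups overlapped.

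Other inhibitors of the pathway were read from a list of 16 genes, of which 11 rose and 4 fell, beside 35.2% and 35.3% of all genes tested. The median log2 fold change of the list was 0.54, against -0.01 over all genes, and Nkiras2 (0.32, adjusted p = 0.556) did not pass. Nfkbid, the gene of the nuclear inhibitor IkB-NS, averaged 272 ± 2.92 CPM in the PM2.5 group and 49.9 ± 0.57 CPM in the PBS group (log2 fold change 2.45, SE 0.03, adjusted p = 4.14e-12). Nfkbib, the gene of IkB-beta, averaged 219 ± 3.03 CPM in the PM2.5 group and 86.5 ± 0.58 CPM in the PBS group (1.34). These log2 fold changes stand beside 0.59 for Nfkbia and 0.60 for Nfkbie. The deubiquitinases moved apart: Otud7b (0.99) and Otulin (0.72) rose, whereas Cyld, which removes the chains that activate the IkB kinase, fell to 113 ± 5.46 CPM in the PM2.5 group, against 225 ± 4.35 CPM in the PBS group (-0.99).

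Of 17 genes that carry the canonical signal to the IkB kinase, 7 rose, 5 fell and 5 did not pass (median log2 fold change 0.04). Calls in this list were as common as among all genes tested, of which 70.6% were called. Malt1, which encodes a protease and scaffold between the T cell receptor and the kinase, had 320 ± 7.59 CPM in the PM2.5 group and 1115 ± 33.6 CPM in the PBS group (-1.80, SE 0.03, adjusted p = 2.11e-11). Bcl10, the gene of an adaptor that binds MALT1, rose by 0.85 on the log2 scale. The kinase gene Prkcq, which acts early in T cell receptor signalling, fell by 0.57 and the costimulatory receptor gene Cd28 rose by 0.59. Of the kinase subunits, Chuk rose (0.43), and Ikbkb (0.04, adjusted p = 0.579) and Ikbkg (-0.04, adjusted p = 0.544) did not pass. Without PBS replicate 2, Ikbkb passed with a log2 fold change of 0.13 (adjusted p = 0.0209).

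On the alternative side 9 of 10 genes were tested, of which 6 rose and 1 fell (median log2 fold change 0.22), where 35.2% of all genes tested rose and 35.3% fell. The receptors that recruit TRAF proteins showed the largest rises, with Tnfrsf4, which encodes OX40, at 901 ± 10.5 CPM in the PM2.5 group and 144 ± 6.20 CPM in the PBS group (2.64). Tnfrsf9, the gene of 4-1BB (1.70), Tnfrsf18, that of GITR (0.91), Cd27 (0.37) and the ubiquitin ligase gene Birc3 (0.20) rose as well. Map3k14, the gene of the kinase NIK that starts the processing of p100, fell by 0.26.

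Genes known as NF-kB targets in lymphocytes rose in 18 of 25 cases, 13 of them at least 2-fold, and 4 fell and 3 did not pass (median log2 fold change 1.12). Among all genes tested 35.2% rose, 6.51% at least 2-fold, and 35.3% fell. This list, like the other pathway lists, was chosen with earlier results of these data known. The counts set beside all genes are therefore no test of the list. Ccl20, a chemokine of Th17 cells, had 366 ± 4.30 CPM in the PM2.5 group and 95.5 ± 2.99 CPM in the PBS group (1.94). Irf4, a transcription factor of activated T cells, averaged 2907 ± 23.8 CPM in the PM2.5 group and 1172 ± 20.6 CPM in the PBS group (1.31). The cytokine gene Csf2 (4.53) and the chemokine genes Ccl4 (2.78) and Ccl3 (2.49) also rose. Il2, a known target of c-Rel, averaged 308 ± 26.7 CPM in the PM2.5 group and 1.92 ± 0.23 CPM in the PBS group (7.33, adjusted p = 6.76e-10). Il2ra (-0.64), the lymphotoxin genes Lta (-0.52) and Ltb (-0.84), and Bcl2a1d (-0.54) fell. Bcl2a1d has near-identical copies, so its value is uncertain.

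**Figure D5:**
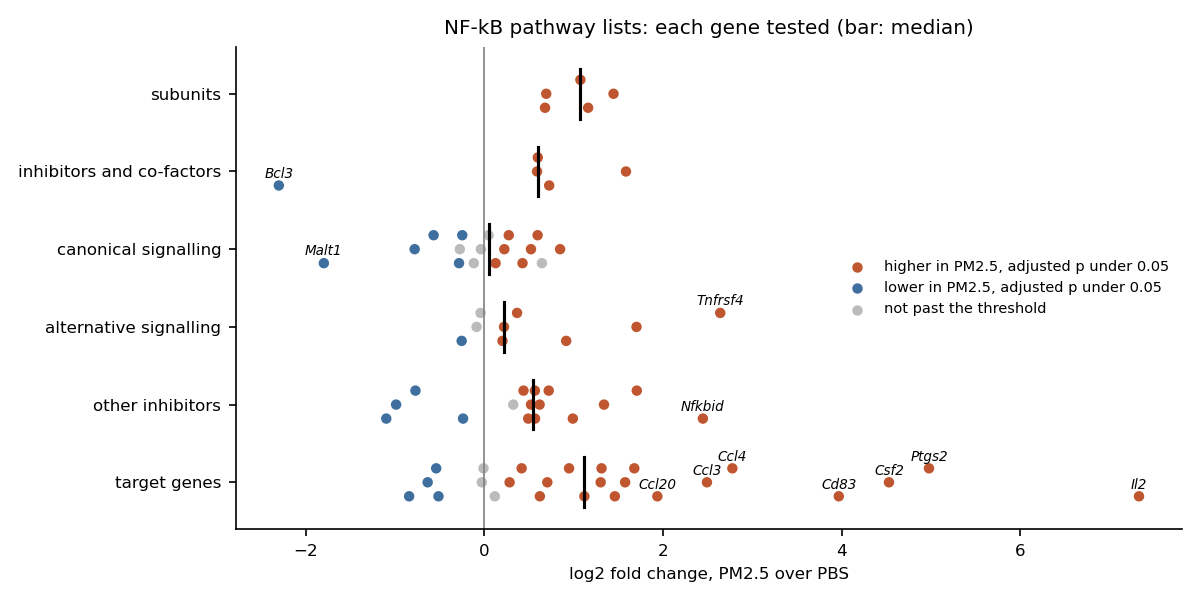
Log2 fold change, PM2.5 over PBS, of each gene tested in the 2 member groups and the 4 pathway lists; orange points were higher and blue points lower at an adjusted p under 0.05, grey points did not pass, and black bars are list medians. The target genes reach furthest to the right, with Il2 at 7.33, and Malt1 lies furthest to the left among the canonical signalling genes at -1.80.

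Other cell types that express NF-kB genes were looked for through their markers. B cell markers summed to 0.236 to 0.478 CPM in the PM2.5 libraries and 1.03 to 1.70 CPM in the PBS libraries, with Ms4a1 at 0 in all. Macrophage and monocyte markers summed to 2.90 to 3.37 CPM in the PM2.5 libraries and 4.74 to 6.18 CPM in the PBS libraries, with Lyz2 listed at 0. Neutrophil markers summed to 0.551 to 0.689 CPM in the PM2.5 libraries and 5.28 to 6.27 CPM in the PBS libraries, and S100a8 and S100a9 were at 0. In each of these lists 1 gene passed the filter on low counts, and it fell (Cd79b, Cd68 and Ly6g). These sums were lower in the PM2.5 group, and whether they bear on the level of any member was not tested.

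Natural killer cell markers summed to 3.53 to 3.90 CPM in the PM2.5 libraries and 7.63 to 8.51 CPM in the PBS libraries, with Ncr1 and Klra8 at 0. Klre1 and Gzma fell and Eomes rose. CD8 and gamma-delta T cell markers summed to 23.2 to 25.9 CPM in the PM2.5 libraries and 40.5 to 41.7 CPM in the PBS libraries, where Cd8a and Trdc fell and Cd8b1 rose in the PM2.5 group. The dendritic cell sum was higher, at 2.56 to 3.50 CPM in the PM2.5 libraries and 0.948 to 1.30 CPM in the PBS libraries. This came mostly through Zbtb46, which rose (log2 fold change 2.54), whereas Itgax fell (-1.17). Siglech and Clec9a were at 0. For comparison, Bcl3 averaged 27.6 ± 2.01 CPM in the PM2.5 group and 136 ± 5.94 CPM in the PBS group. A sum of markers does not say how much of the level of a member such cells hold. The part of such cells in the results was not tested.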

How the data were processed

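The authors deposited raw counts per Ensembl gene and FPKM for 6 libraries, per the file headers; the submitters' processing notes name TopHat2 2.0.6 and mm10. The sources used here name no counting program, annotation or strand setting, so overlapping and antisense genes can share reads. The FPKM are the authors' own; gene lengths behind them were worked out from counts and library totals.

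Genes passing edgeR's filterByExpr (minimum count 10; 12967 genes, 99.9% of counts, 21778 left out) were tested with edgeR 4.0.16 in R 4.3.3: TMM scaling, glmQLFit (robust), the quasi-likelihood F test (two-sided) for group, Benjamini-Hochberg adjustment over all genes tested, threshold 0.05. The procedure was tested on simulated data. Values are TMM-scaled CPM with SD, n = 3; the SE was derived from each log2 fold change and its F. Summed markers are scaled by library totals. Coordinates are those of the table, on mm10; 3 listed marker genes had no match. Promoter stretches are from RefSeq, and lengths and overlaps from GENCODE M21. Shares and ratios were compared by exact permutation in scipy 1.17.1.

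Named pathway genes are the 5 with the smallest adjusted p in each list and any whose call an alternative ended, apart from 1 that is not reported here; others were named after their values were seen. Members and lists were chosen with earlier results of these data known. Replicates of a group differed by more than sampling noise (chi-square per degree of freedom 7.57 to 9.89), so each library was kept as 1 replicate.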

Additional observations from a re-analysis of the deposited data

How the results depend on the processing

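All 10 members kept their direction and call under each of 14 alternatives: DESeq2's test (version 1.42.0) or size factors, library totals, no filter or a filter at 5 CPM, limma 3.58.1 on log2(FPKM + 1) or log2(FPKM + 0.1), a replicate block, and leaving out each library. The widest range was that of Tnfaip3, from 1.37 without PM2.5 replicate 3 to 1.75 without PM2.5 replicate 1; with the replicate block its adjusted p was 0.0427, over a range of 5.26e-11 to 0.0427. The replicate numbers come from sample titles. Same-numbered libraries correlated at 0.007 to 0.045 in their deviations from group means, and the other pairs at -0.037 to 0.023. With 3 libraries per group these values cannot decide whether same-numbered libraries share a mouse or a day. The block moved the count of genes called to 9002, against 9149. Library totals, the filter at 5 CPM and the limma fits moved the median change over all genes by -0.06 to -0.07. Among 67 other pathway genes, Ripk1 (0.12), Tab3 (0.22) and Commd1 (-0.24) lost their call in some alternatives (13 of 932 results), and 16 results of 6 other genes gained one, Map3k7 (-0.26) and Traf1 (0.12) with the replicate block. Tab2 (0.64) passed without PBS replicate 2 (0.94, adjusted p = 8.21e-08). The log2 ratio of Relb to Rela was 0.01 and lay between -0.0189 (without PBS replicate 2) and 0.0353 (without PBS replicate 3) when libraries were left out, so its direction is not settled. Undivided by length, the share of Nfkb2 differed by 0.450 percentage points (exact permutation p = 0.6), against 3.39. The use of principal transcript lengths was chosen after seeing the data.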

Other observations

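Relb and Bcl3 lie on the same stretch of mouse chromosome 7, with 179023 bases between them in the coordinates of the table, and moved in opposite directions. Of the 11 genes listed between them 5 were tested, of which 4 rose and 0 fell, beside 35.2% and 35.3% of all genes tested. Tomm40, an import channel of the mitochondrial outer membrane, averaged 124 ± 1.23 CPM in the PM2.5 group and 80.5 ± 2.63 CPM in the PBS group (log2 fold change 0.62, adjusted p = 1.11e-07 in edgeR's quasi-likelihood test). Clptm1, the direct neighbour of Relb, rose by 0.18, Apoe, the gene of apolipoprotein E, by 1.48 at 5.99 ± 0.58 CPM in the PM2.5 group and 2.14 ± 0.12 CPM in the PBS group, and Pvrl2 by 1.20. Bcam (0.43, adjusted p = 0.0920) did not pass. These genes were taken for their position after the values of Relb and Bcl3 were known.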
